A study of Homo sapiens with 4 samples.

Results

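The genes described here encode the subunits of the mitochondrial oxidative phosphorylation system. They were read from gene names on the array: a probe was taken where its target name began with NDUF and the letter A, B, C, S or V before a digit, was SDHA, SDHB, SDHC or SDHD, or began with UQCR, with COX and a digit from 4 to 8, or with ATP5. The names gave 114 probes for 87 gene names, of 47321 probes on the array. Of the 87 names, 36 belonged to complex I, 4 to complex II, 7 to complex III, 19 to complex IV and 15 to complex V. The other 6 matched by name only and were no subunit. They were COX4NB (EMC8, a subunit of the endoplasmic reticulum membrane protein complex), ATP5S and ATP5SL (now DMAC2L and DMAC2), the pseudogenes ATP5EP2 and COX6BP1, and UQCRHL, a near copy of UQCRH. Gene names are those of the array, and current names are given in parentheses where they differ.

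The series set cells with added miR-223, a microRNA best known from myeloid blood cells, against cells given a control RNA. All samples were OE33, an established human esophageal adenocarcinoma cell line, so the comparison rests on 1 line. In the miR-223 group (2 arrays), cells were transfected with 10 nM of a pre-miR precursor of hsa-miR-223. In the control group (2 arrays), they were transfected with 10 nM of a negative control pre-miR, so both groups carried a transfected small RNA. RNA was taken after 24 h and hybridised to 1-colour Illumina bead arrays, and the question for these genes was whether their transcripts differed between the groups. The series calls the arrays biological replicate experiments, and the labels do not say whether a shared replicate number marks a shared experiment. The p-values measure the spread between these arrays of 1 line. A lower signal for a gene cannot separate fewer expressing cells from less RNA per cell.

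Oxidative phosphorylation takes electrons from NADH at complex I and from succinate at complex II, passes them through complex III and cytochrome c to oxygen at complex IV, and uses the resulting proton gradient to make ATP at complex V. Most subunits are encoded in the nucleus, translated in the cytosol and imported into mitochondria. A smaller set, encoded in mitochondrial DNA, was not analysed here. A microRNA acts through its seed, the stretch near its 5′ end that pairs with messenger RNAs and lowers their stability and translation.

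The MIR223 gene encodes the 2 mature strands below, shown because the miR-223 group was given a precursor of this microRNA. They are the RefSeq records for build GRCh38.p14, both on the plus strand of chromosome X, at chrX:66018937-66018958 for the 3p strand and chrX:66018895-66018916 for the 5p strand. Capitals mark the seed, bases 2 to 8, and the 2 seeds are not the same.
hsa-miR-223-3p: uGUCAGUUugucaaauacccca
hsa-miR-223-5p: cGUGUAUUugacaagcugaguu
The array's probe for MIR223 was detected on 0 of 4 arrays. It is no measure of the transfected precursor. Neither the gain of mature miR-223 nor the strand that the precursor yielded was measured by these arrays.

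The promoters of these genes are known to share binding motifs for the factors NRF1, GABPA (an ETS factor) and YY1, which are regarded as coordinators of nuclear respiratory genes. A window of 250 bases before and 50 after the RefSeq start was found for 67 of the 81 subunit genes. On either strand, 35 of the 67 windows (52.2%) held at least 1 of 3 words, which were GCGCA and GCGC with any 1 base (N) between them (NRF1), CCGGAAG (ETS) and AAGATGGCG (YY1), against 3619 of all 15843 windows searched (22.8%). The NRF1 word stood in 15 windows (22.4%, against 8.58% of all windows), the ETS word in 19 (28.4%, against 14.2%) and the YY1 word in 8 (11.9%, against 2.74%). The median GC content was 61.0% in the subunit windows and 62.7% in all windows. At least 1 word was found in 15 of 31 windows for complex I, 3 of 3 for complex II, 5 of 6 for complex III, 6 of 16 for complex IV and 6 of 11 for complex V. A match is a run of letters and not a measured binding site.

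The 250 bases upstream of the start of 5 genes are shown because they hold the words in different numbers and mixtures, with the matched words in capitals and each sequence read along the gene's own strand. SDHA, SDHB and SDHD are 3 of the 4 complex II genes, UQCR (UQCR11) is a small subunit of complex III, and ATP5J (ATP5PF) is part of the peripheral stalk of complex V. All are from RefSeq on GRCh38.p14.
SDHA, chr5:218070-218319, plus strand, 4 NRF1 words: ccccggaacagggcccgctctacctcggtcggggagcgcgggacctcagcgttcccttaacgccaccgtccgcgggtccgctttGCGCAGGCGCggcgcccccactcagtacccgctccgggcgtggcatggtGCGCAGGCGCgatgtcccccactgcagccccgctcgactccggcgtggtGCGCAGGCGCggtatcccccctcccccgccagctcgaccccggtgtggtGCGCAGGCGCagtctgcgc
SDHB, chr1:17054033-17054282, minus strand, 1 ETS word: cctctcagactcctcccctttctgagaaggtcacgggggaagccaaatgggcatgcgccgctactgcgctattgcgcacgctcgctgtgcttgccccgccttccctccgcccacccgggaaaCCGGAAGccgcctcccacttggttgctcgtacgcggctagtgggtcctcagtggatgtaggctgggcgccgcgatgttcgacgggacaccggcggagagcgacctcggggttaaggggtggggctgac
SDHD, chr11:112086623-112086872, plus strand, 1 NRF1 word and 1 ETS word: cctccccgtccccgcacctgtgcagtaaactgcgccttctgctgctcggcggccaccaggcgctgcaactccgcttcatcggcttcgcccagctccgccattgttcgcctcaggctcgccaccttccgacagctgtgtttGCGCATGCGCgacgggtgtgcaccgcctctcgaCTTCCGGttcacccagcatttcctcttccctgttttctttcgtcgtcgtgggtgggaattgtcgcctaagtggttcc
UQCR, chr19:1605463-1605712, minus strand, 2 NRF1 words and 2 ETS words: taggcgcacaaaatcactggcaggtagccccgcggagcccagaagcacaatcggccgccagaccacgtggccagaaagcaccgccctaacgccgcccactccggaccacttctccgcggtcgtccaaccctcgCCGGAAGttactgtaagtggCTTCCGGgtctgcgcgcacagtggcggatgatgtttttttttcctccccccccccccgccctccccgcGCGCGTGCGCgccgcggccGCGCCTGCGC
ATP5J, chr21:25735055-25735304, minus strand, 1 ETS word and 1 YY1 word: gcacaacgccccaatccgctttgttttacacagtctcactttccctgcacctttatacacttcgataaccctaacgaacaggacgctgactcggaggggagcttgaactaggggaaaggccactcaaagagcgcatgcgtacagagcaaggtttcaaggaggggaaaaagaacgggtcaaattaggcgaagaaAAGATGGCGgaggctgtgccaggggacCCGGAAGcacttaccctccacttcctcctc
Spacing also differed: the 4 NRF1 words of SDHA began at positions -166, -117, -68 and -19 from the start, at equal intervals, whereas the 2 NRF1 words of UQCR began at -29 and -10.

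Most of these genes were expressed in OE33. A signal counted as detected where the deposited detection p, the chance of such a signal among the array's negative control probes, was under 0.05. On all 4 arrays, 97 of the 114 probes (85.1%) were detected, against 32.5% of all probes. Another 5 were detected on some arrays and 12 on none. The share detected on all 4 arrays was 37 of 41 probes for complex I, 6 of 6 for complex II, 8 of 10 for complex III, 12 of 20 for complex IV and 26 of 28 for complex V. Complex IV stood lowest, and its 8 undetected or partly detected probes belonged to 7 isoforms or paralogs known from particular tissues or conditions. The arrays themselves were alike, with a median signal of 114.5 to 118.4 and 18036 to 18916 detected probes. All 6 epithelial markers were detected on all 4 arrays, as were ERBB2 and CDX2 of the OE33 list, while VIL1 was detected on none. Markers of endothelium and the leukocyte genes PTPRC and CD3E were detected on no array, and no fibroblast or striated muscle marker was detected on more than 1 array, whereas CD68 and LYZ were detected on all 4.

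Several subunits of complex IV have a widely expressed form and a form restricted to some tissues, and their probes differed in detection. COX4I1, the widely expressed form of the subunit that binds ATP as a regulator, gave raw signals of 9727 and 12362.5 on the miR-223 arrays and 10196 and 9991 on the control arrays. Its lung-enriched counterpart COX4I2 gave 93.5 and 102 on the miR-223 arrays and 99.1 and 104 on the control arrays, and was detected on none. The same split held for the heart and muscle forms. COX6A1 was detected on all 4 arrays, and COX6A2 on 1. COX7A2 was detected on all 4, while COX7A1 was detected on none, with a raw signal of at most 98.4. COX6B1, COX7B and COX8A were detected throughout, and their counterparts COX6B2, COX7B2 and COX8C, known from testis, on no array. NDUFA4 (COXFA4), first counted to complex I and now to complex IV, was detected on all 4 arrays, whereas its hypoxia-induced paralog NDUFA4L2 (COXFA4L2) was detected on none. A probe that was not detected does not show that its isoform was absent.

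**Figure D1:**
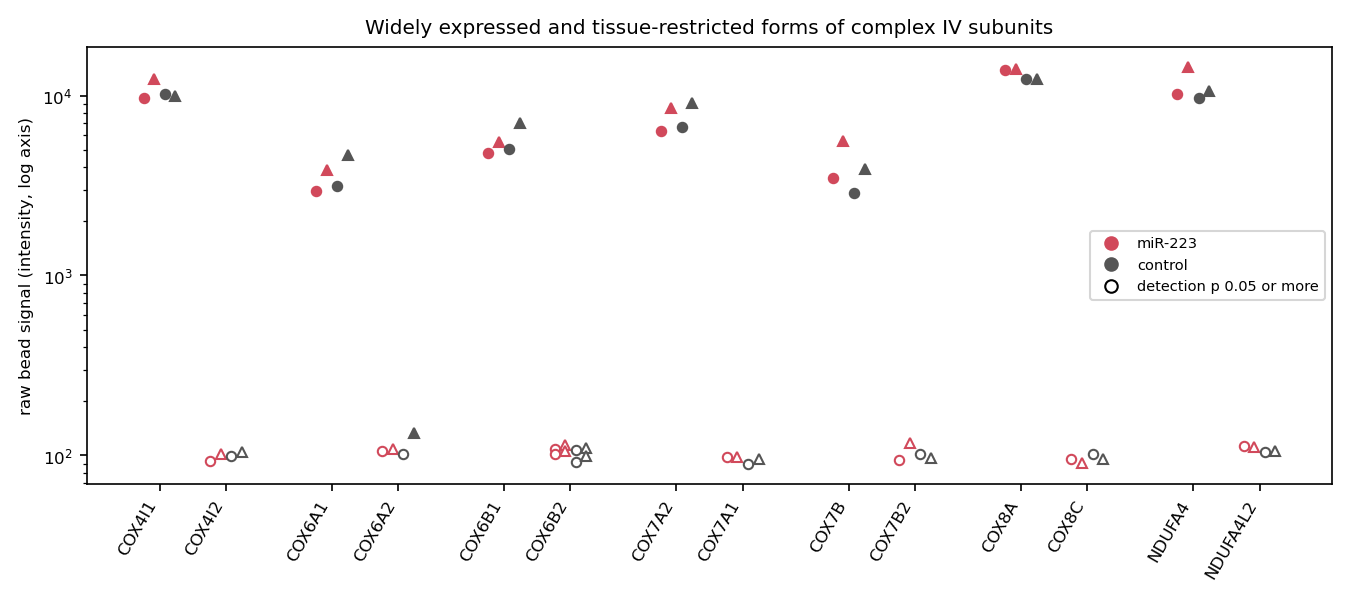
Raw bead-array signal (log scale) on each array for complex IV isoforms and their counterparts, with miR-223 arrays left of control arrays for each gene. The probes of the widely expressed forms are filled (detected) on every array, and those of the restricted forms are open (not detected) except COX6A2 on 1 control array. Probes differ in brightness, so the height of 1 gene's points is not a measure of its transcript number relative to another's.

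Among obligate subunits, 2 complex I genes had no probe that could be tested. The NDUFS6 probe, for a zinc-binding subunit, gave 105 and 100.4 on the miR-223 arrays and 99.8 and 102 on the control arrays, and was detected on none. The NDUFA5 probe was detected on 1 array. A probe that is not detected puts no level on its transcript.

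In all, 77 of the 87 genes had a tested probe, one detected on at least 2 of the 4 arrays. A gene with several tested probes is given by its brightest. Levels are log2 intensities after background correction and quantile normalisation, and differences are miR-223 minus control on that scale, with standard errors from the limma fit over 18629 tested probes. After Benjamini-Hochberg adjustment, 0 of the 97 tested probes of these genes passed 0.05, the lowest adjusted p being 0.910, and 0 of all tested probes did (0%). At an unadjusted p under 0.05 there were 4 probes of the 97 (4.12%), against 5.45% of all tested probes. Of the 4, the NDUFB1 and NDUFS7 probes were higher with miR-223, against 2.67% of all tested probes, and the ATP5SL probe and 1 of the SDHC probes were lower, against 2.78%. These shares are near the background. With 2 arrays against 2, a two-sided exact permutation test of a single gene could not give a p under 0.333.

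The differences of these genes were small and lay on both sides of 0. Of the 77 genes, 39 were positive and 38 negative, with a median of 0.0050, against 7.3e-05 over all 14331 tested genes. The 72 that encode subunits had 36 positive and 36 negative, with a median of 0.0048. The middle 50% of the 77 genes ran from -0.094 to 0.099, a width of 0.193 against 0.340 for all tested genes. These genes were also bright: 77.9% of the 77 genes and 20.0% of all tested genes had a mean log2 intensity of 10 or more. Among genes that bright, the width was 0.190 for the 60 genes of the set and 0.249 for all 2862. Within 0.2 of 0 lay 55 of the 77 genes (71.4%), against 56.8% of all tested genes, and among bright genes 76.7% against 70.0%. For 73 of the 77 genes the 95% confidence interval of the difference stayed inside 1 log2 unit in either direction. The lowest bound of any interval was -1.12 (ATP5SL) and the highest 1.17 (NDUFA6). The standard errors ran from 0.21 to 0.29.

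**Figure D2:**
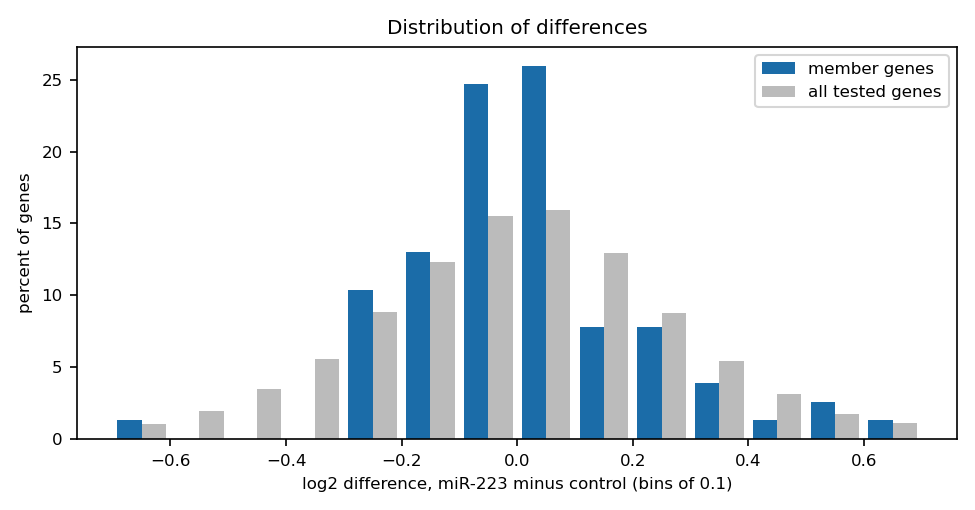
Percent of genes (vertical axis) by log2 difference, miR-223 minus control, in bins of 0.1 (horizontal axis), for the 77 tested genes of the set, of which 72 encode subunits, and for all 14331 tested genes. The genes of the set gather in the bins next to 0, with few beyond 0.3 on either side.

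The groups of arrays did not overlap for 22 of the 77 genes (28.6%), 15 of them higher with miR-223 and 7 lower, against 33.5% of all tested genes, 16.3% higher and 17.2% lower. Counted by probe it was 27 of 97 (27.8%), against 33.2% of all tested probes. For the direction, 19 probes were higher, against 16.4% of all tested probes, and 8 were lower, against 16.8%. The medians of the complexes lay between -0.03 and 0.08, with no test between them. Complex I had a median difference of 0.08 over 34 genes, complex II 0.06 over 4, complex III -0.02 over 7, complex IV -0.03 over 12 and complex V -0.03 over 15. Without replicate 2 of miR-223 the complex I median was -0.04, and without replicate 1 of miR-223 the complex V median was 0.05.

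**Figure D3:**
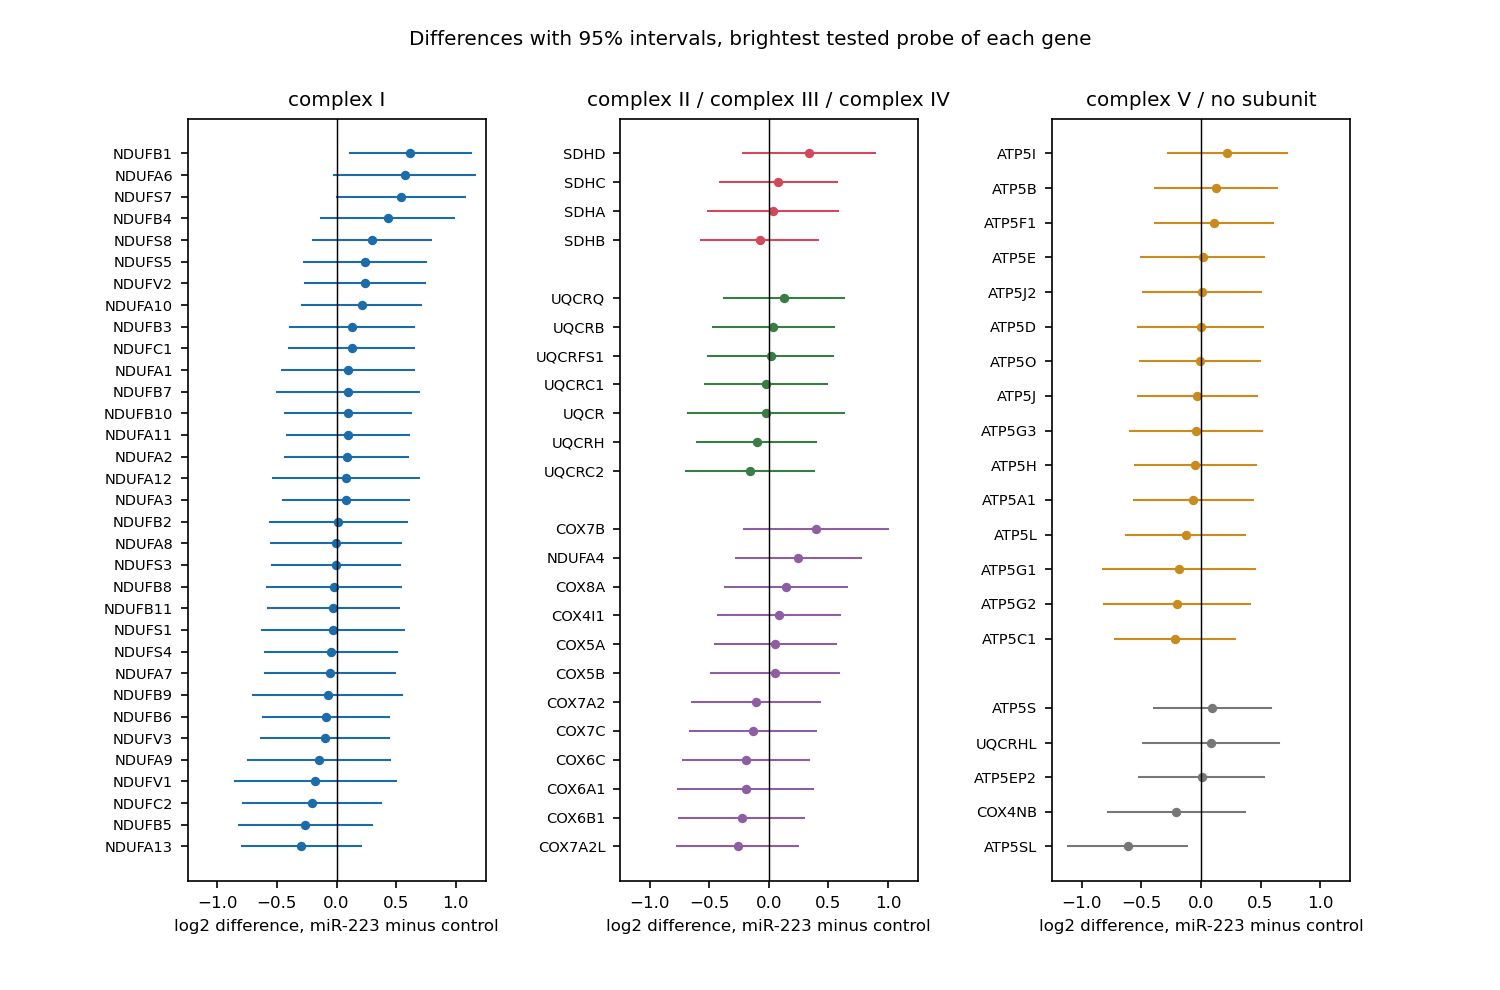
Log2 difference, miR-223 minus control (horizontal axis), for the tested genes shown, sorted within complex, with 95% confidence intervals as bars. The intervals of NDUFB1, NDUFS7 and ATP5SL do not cross 0, and those of the other genes shown do.

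In complex I, the entry point for NADH, 19 of 34 tested genes were positive and 15 negative. In 10 (29.4%) the groups did not overlap, 9 of them higher with miR-223 and 1 lower, against 33.5% of all tested genes, 16.3% higher and 17.2% lower. The catalytic core, which holds the flavin and iron-sulfur clusters, had 7 tested genes with a median difference of 0.24, of which 4 were positive and did not overlap, a count over few genes to be read against the same 16.3%. NDUFS7, the core subunit that carries the last iron-sulfur cluster before ubiquinone, had log2 intensities of 10.59 and 10.92 with miR-223, against 10.31 and 10.12 in control. Both miR-223 arrays lay above both control arrays. The difference was 0.54 ± 0.23 (SE, n = 2 each), or 1.45-fold, with an unadjusted limma p of 0.0476 and an adjusted p of 0.910, so it did not pass the test in this fit.

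NDUFS8, another iron-sulfur protein of the core, had 13.14 and 13.02 with miR-223, against 12.80 and 12.76 in control, a difference of 0.30 ± 0.22 without overlap. NDUFV2, which carries an iron-sulfur cluster next to the flavin, differed by 0.24 ± 0.22, also without overlap. The other 3 core genes had differences below 0. NDUFV1, which binds NADH and flavin, had 11.80 and 10.99 with miR-223, against 11.59 and 11.56 in control, and its groups overlapped, with the miR-223 arrays at both ends. NDUFS1 and NDUFS3 differed by -0.03 and -0.0048.

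The supernumerary subunits of complex I, which surround the core and serve its assembly and stability, had 27 tested genes with a median of 0.08, 15 positive and 12 negative. The highest difference was that of NDUFB1, a small subunit of the membrane arm. It had 6.02 and 5.93 with miR-223, against 5.25 and 5.46 in control, a difference of 0.62 ± 0.22 with an unadjusted limma p of 0.0229 and an adjusted p of 0.910. The probe was dim, with raw signals of 151 and 157 on the miR-223 arrays and 128 and 140.5 on the control arrays, and without background correction the difference was 0.22. NDUFA6, a subunit of the LYR family in the peripheral arm, had 8.16 and 8.50 with miR-223, against 7.52 and 7.99 in control. Its difference of 0.57 ± 0.26 had an unadjusted limma p of 0.0556 and an adjusted p of 0.911.

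At the other end stood NDUFA13, also known as GRIM-19, with 10.43 and 10.37 with miR-223, against 10.62 and 10.77 in control. Its difference was -0.30 ± 0.22, and it was the 1 gene of complex I whose miR-223 arrays both lay below control. NDUFB5, a membrane-arm subunit, had 11.35 and 11.70 with miR-223, against 11.63 and 11.94 in control, a difference of -0.26 ± 0.24 with overlap, and of -0.087 without replicate 1 of miR-223. The remaining supernumerary genes lay between -0.21 (NDUFC2) and 0.43 (NDUFB4). Both of these were read by dim probes, with raw signals of 136.7 to 159.5 for NDUFC2 and 133.3 to 170 for NDUFB4.

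Complex II, succinate dehydrogenase, also belongs to the citrate cycle, and its 4 subunits are all nuclear. SDHA, the flavoprotein that oxidises succinate, had 11.21 and 10.81 with miR-223, against 11.03 and 10.91 in control, a difference of 0.04 ± 0.24. SDHB, its iron-sulfur partner, had 11.65 and 11.71 with miR-223, against 11.75 and 11.76 in control, a difference of -0.08 ± 0.21 without overlap. Neither catalytic subunit moved beyond its error. SDHD, a membrane anchor that binds heme and ubiquinone, had 9.80 and 10.04 with miR-223, against 9.39 and 9.78 in control, a difference of 0.33 ± 0.24 with an unadjusted limma p of 0.202. Its groups were separated by a narrow gap, 9.80 against 9.78.

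SDHC, the other anchor, gave different answers by probe. Its brighter probe had 9.42 and 9.51 with miR-223, against 9.38 on both control arrays, a difference of 0.08 ± 0.21. Its dimmer probe had 7.30 and 7.61 with miR-223, against 7.87 and 8.25 in control, a difference of -0.61 ± 0.25 with an unadjusted limma p of 0.0381 and an adjusted p of 0.910. On neither probe did the groups overlap, and the signs were opposite. What the 2 probes read apart from each other was not tested. More than 1 probe was tested for 18 genes. In 11 of these the signs disagreed between probes, and in 2, SDHC and ATP5G1, the probes lay over 0.5 apart.

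Complex III passes electrons from ubiquinol to cytochrome c. Its 7 tested genes had the narrowest range of the 5 complexes. In 0 of the 7 did the groups separate, a count over few genes to be read against 33.5% of all tested genes. UQCRC2, a core protein facing the matrix, had 10.64 and 10.49 with miR-223, against 10.55 and 10.90 in control, a difference of -0.16 ± 0.23. UQCRH, the hinge protein at the cytochrome c docking site, differed by -0.10 ± 0.22 on its brighter probe. Its dimmer probe differed by 0.04 ± 0.29, and the groups overlapped on both probes. UQCRQ, a small subunit beside cytochrome b, had the highest difference, 0.13 ± 0.22, and UQCRB, another subunit near cytochrome b, differed by 0.04 ± 0.22. UQCRFS1, the Rieske iron-sulfur protein, had 12.41 and 12.15 with miR-223, against 12.36 and 12.17 in control, so the spread within each group exceeded the difference of 0.01.

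Complex IV, cytochrome c oxidase, had 6 positive and 6 negative genes among 12 tested. COX7B, a small subunit, had 11.80 and 12.35 with miR-223, against 11.54 and 11.81 in control, a difference of 0.40 ± 0.26 with an unadjusted limma p of 0.167. The groups overlapped narrowly, and without replicate 2 of miR-223 the difference was 0.12. NDUFA4 had 13.41 and 13.72 with miR-223, against 13.35 and 13.27 in control, a difference of 0.25 ± 0.23 without overlap. These were the highest differences of complex IV, and without replicate 2 of miR-223 that of NDUFA4 was 0.095.

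The lowest were those of COX7A2L and COX6B1. COX7A2L, which joins complex III to complex IV in supercomplexes, had 10.95 and 11.14 with miR-223, against 11.40 and 11.22 in control, a difference of -0.26 ± 0.22. COX6B1, which faces the intermembrane space, had 12.26 and 12.33 with miR-223, against 12.36 and 12.68 in control, a difference of -0.23 ± 0.23, and of -0.065 without replicate 2 of control. Both were lower with miR-223 on both arrays, and neither passed the test. The other widely expressed forms differed by -0.19 (COX6A1), -0.11 (COX7A2), 0.08 (COX4I1) and 0.14 (COX8A), all with overlapping groups.

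Complex V, the ATP synthase, had 5 positive and 10 negative genes, all between -0.22 and 0.22. ATP5B (ATP5F1B), the catalytic beta subunit, had 14.36 and 14.49 with miR-223, against 14.41 and 14.19 in control, a difference of 0.12 ± 0.22. ATP5C1 (ATP5F1C), the gamma subunit of the rotating central stalk, had 11.92 and 12.08 with miR-223, against 12.17 and 12.26 in control, a difference of -0.22 ± 0.22 without overlap. ATP5I (ATP5ME), a membrane subunit that helps pair the enzymes, had 12.36 and 12.48 with miR-223, against 12.14 and 12.27 in control, a difference of 0.22 ± 0.22 without overlap. The dimmer tested probe of ATP5I differed by -0.06 ± 0.23, with overlapping groups. By the brightest probe of each gene, ATP5C1 and ATP5I stood at the 2 ends of the complex, each at about the size of its error.

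The proton-carrying c ring is encoded by 3 genes whose mature proteins are the same. ATP5G2 (ATP5MC2) had 11.64 and 12.25 with miR-223, against 12.04 and 12.25 in control, a difference of -0.20 ± 0.27 on its brightest probe. Its dimmer tested probe differed by 0.19 ± 0.25, with overlapping groups. ATP5G3 (ATP5MC3) differed by -0.04 ± 0.24. ATP5G1 (ATP5MC1) differed by -0.18 ± 0.28 on its brighter probe, with 10.35 and 10.97 with miR-223 against 10.66 and 11.03 in control. On its dimmer probe it had 6.73 and 6.86 with miR-223, against 6.36 and 6.27 in control, a difference of 0.48 ± 0.22 with an unadjusted limma p of 0.0581. Without background correction the dimmer probe differed by 0.24. As with SDHC, the 2 probes of ATP5G1 pointed in opposite directions, and so did the tested probes of ATP5G2.

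**Figure D4:**
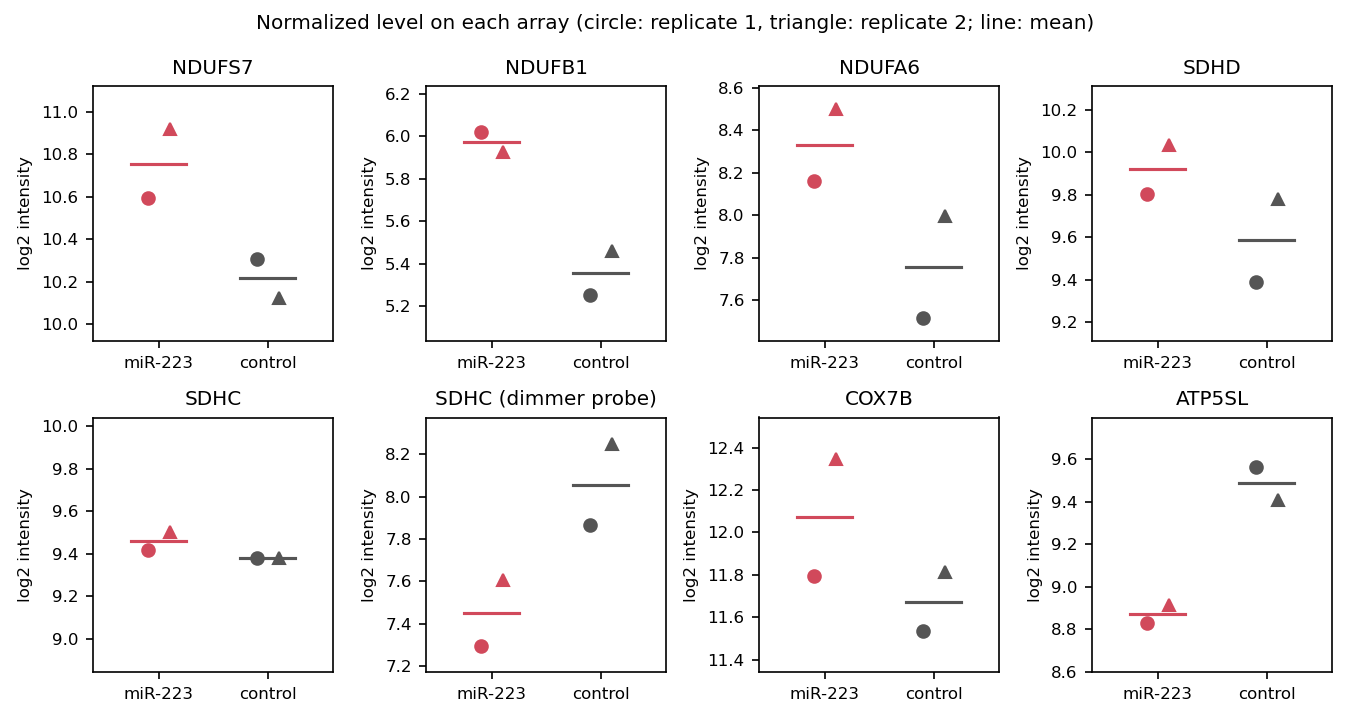
Log2 intensity on each array (vertical axis, which differs between panels and does not start at 0) for 7 genes, SDHC with both probes; circles are replicate 1, triangles replicate 2 and lines the group means, with miR-223 left of control. NDUFS7, NDUFB1 and NDUFA6 lie higher and ATP5SL lower on both miR-223 arrays, and the groups are a fraction of a log2 unit apart.

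Of the 6 names that are no subunit, 5 were tested. ATP5SL (DMAC2), which despite its older name serves the assembly of the membrane arm of complex I, had the lowest difference of all 77 genes. It had 8.83 and 8.91 with miR-223, against 9.56 and 9.41 in control, a difference of -0.62 ± 0.22, or 1.53-fold lower, with an unadjusted limma p of 0.0218 and an adjusted p of 0.910. The raw signals had the same order, 521 and 602 on the miR-223 arrays and 788 and 831 on the control arrays. ATP5S differed by 0.09 and COX4NB by -0.21. ATP5EP2 differed by 0.0050 and UQCRHL by 0.08, and both are so close in sequence to ATP5E and UQCRH that their probes may read the parent transcript.

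The differences in the authors' deposited table, which gives their own log2 values, had a similar range. In the authors' deposited table the 87 genes ran from -0.53 (ATP5SL) to 0.51 (NDUFS7), with a median of 0.01. ATP5SL was thus lowest on both scales, while the highest gene was NDUFS7 on the authors' scale and NDUFB1 in the fit. In the authors' deposited table NDUFA6 differed by 0.42, COX7B by 0.39, SDHD by 0.30 and NDUFB1 by 0.22.

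Genes that build or surround the complexes gave no adjusted call either. Of 13 tested assembly factors of complex I, 7 were positive and 6 negative, with a median of 0.02 and 0 at an unadjusted p under 0.05. They ran from ECSIT, an assembly factor also known from immune signalling, at -0.55 ± 0.24 (unadjusted limma p 0.0502) to NDUFAF2 at 0.31 ± 0.26. Of 28 assembly factors of complexes II to V, 19 were positive and 9 negative, with a median of 0.16 and 0 at an unadjusted p under 0.05. SDHAF1, which helps insert iron-sulfur clusters into SDHB, had the highest difference, with 8.56 and 8.93 with miR-223, against 8.01 and 8.35 in control, a difference of 0.57 ± 0.25 and an unadjusted limma p of 0.0501. The lowest was -0.55 ± 0.31 for COX11, read by a dim probe named COX11P. That probe had 4.66 and 5.56 with miR-223, against 5.74 and 5.57 in control, so the difference rested mostly on 1 miR-223 array.

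Among 7 further subunits and carriers that the names did not take, ETFDH stood lowest at -0.35 ± 0.24. ETFDH feeds electrons from fatty acid oxidation to ubiquinone. ATPIF1 (ATP5IF1), the inhibitor of complex V, stood highest at 0.37 ± 0.31. It had 9.08 and 9.97 with miR-223, against 9.05 and 9.26 in control. The groups overlapped, and the difference rested mostly on 1 miR-223 array. CYC1, the cytochrome c1 of complex III, differed by 0.0023. Of 16 listed regulators of mitochondrial gene expression, 12 were tested, and NRF1 and PPARGC1A were not among them. The 12 had a median of -0.0099, 5 positive and 7 negative. They ran from POLG, the polymerase that copies mitochondrial DNA, at -0.32 to YY1 at 0.25. The 19 tested citrate cycle enzymes had a median of 0.04. An unadjusted limma p under 0.05 was found for 1 gene of the 19, against 777 of all 14331 tested genes. That gene was DLST, of the 2-oxoglutarate dehydrogenase complex, with 7.34 and 7.56 with miR-223, against 7.83 and 8.70 in control, a difference of -0.82 ± 0.31 with an unadjusted limma p of 0.0281 and an adjusted p of 0.910.

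The 2 arrays of a group also differed from each other, and did so alike in both groups for many of these genes. Replicate 2 lay above replicate 1 in both the miR-223 and the control group for 39 of the 77 genes (50.6%), and below it in both for 13 (16.9%). Over all tested genes the shares were 32.3% and 29.6%. The subunits of complex I split by role. Among the 27 supernumerary genes, 18 were higher on replicate 2 in both groups and 1 was lower in both, with median differences between replicates of 0.300 in the miR-223 group and 0.203 in control. Among the 7 core genes, 0 were higher in both groups and 5 were lower in both, with medians of -0.18 in the miR-223 group and -0.05 in control. This pattern was seen after the values and is given with no test. The labels do not say what a shared number stands for, and its part in the comparison of miR-223 with control is given among the alternatives.

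**Figure D5:**
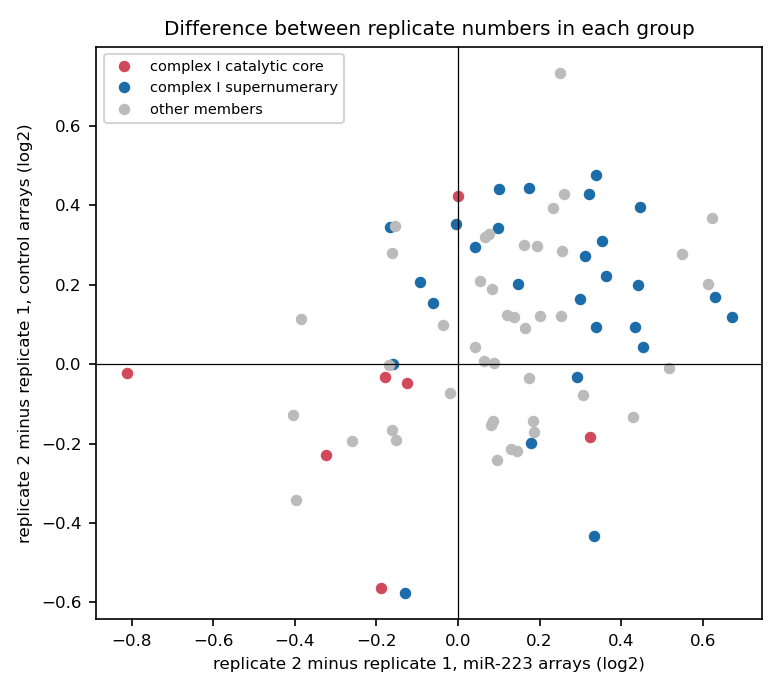
Log2 difference of replicate 2 minus replicate 1 in the control group against that in the miR-223 group, 1 point for each tested gene of the set, with complex I core and supernumerary genes marked. Most supernumerary genes lie in the quadrant where both differences are positive, and 5 of the 7 core genes where both are negative.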

How the data were processed

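Total RNA of OE33 cells was read on 4 HumanHT-12 v4 arrays (Illumina), 2 with miR-223 and 2 with control precursor. The deposited non-normalized table gives, for each probe and array, the signal as a linear intensity, a detection p-value, a bead count and a bead standard error, per the file headers. The authors' deposited value table holds quantile-normalized linear intensity. Their deposited gene table gives log2 values by gene, their group difference and a signed linear fold, treated as a score and not used. GenomeStudio, BeadStudio and Partek are named, without version, in the submitters' processing notes, and their settings are not given in the sources used here.

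Intensities were corrected by normexp with negative controls inferred from detection p-values (offset 16), put on the log2 scale and quantile-normalized, the steps of neqc (limma 3.58.1, R 4.3.3). The 18629 of 47321 probes detected (p under 0.05) on 2 or more arrays were fitted with lmFit and eBayes on group alone (6.24 prior degrees of freedom), with two-sided p-values adjusted by Benjamini-Hochberg over all tested probes. The fit was tried on simulated data with independent noise on each array, which leaves out any shared deviation of same-numbered arrays. Median bead count was 22 a probe, and 2 arrays a group limit the precision. All columns of values belonged to a sample, and 0 were set aside.

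Array gene names were matched to RefSeq symbols (27039 probes by current symbol, 4664 by synonym, 15618 kept as named). The members and lists were chosen with earlier results of these data known. Genes were named by rule: the 2 lowest and 2 highest of each complex, members at an unadjusted p under 0.05, complex II, isoform pairs, discordant probes, undetected members, and the ends of each list. Core genes of complex I, UQCRFS1, NDUFC2, NDUFB4, ATP5S, COX4NB and CYC1 were named after their values were seen. Alternatives were background correction, normalization, the filter, the variance model, the choice of probe, the authors' values, each array left out, and replicate number as a block. Some results for single genes are not reported here.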

Additional observations from a re-analysis of the deposited data

How the results depend on the processing

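Among settings without a replicate block that kept all 4 arrays, no named probe reversed its sign and 0 of the oxidative phosphorylation probes passed the adjusted threshold. The median of complex II, over 4 genes, was 0.070 with cyclic loess, 0.12 with median scaling and -0.00045 with the mean of each gene's probes, and the median of complex IV was 0.053 with no filter on dim probes. Median scaling also turned 3 negative medians positive, to 0.035 for complex III, 0.023 for complex IV and 0.015 for complex V. With it the median of all 77 genes was 0.058. The mean of a gene's probes turned the sign of 5 of the 18 genes with several tested probes: SDHC (-0.26), ATP5G1 (0.15), NDUFB6 (0.068), ATP5A1 (0.024) and ATP5L (0.0024). The cause was not tested. Replicate numbers are shared between the groups, but the labels do not say what they mark. Arrays of the same number deviated together, with a correlation of 0.352 over all tested probes and 0.311 over these. With the number as a replicate block, 0 probes were called and 6 of 97 had an unadjusted p under 0.05 (6.19%, against 10.3% of all tested probes). In 3 versions of the block chosen after seeing the data, 8 probes had such a p (8.25%, against 11.6% of all) and 0 were called with a variance trend, where 176 of all probes were called. Without background correction under the block, 9 had such a p (9.28%, against 12.6% of all) and 2 were called, NDUFS7 (0.51) and ATP5SL (-0.53), where 357 of all probes were called (1.92%). On the authors' values under the block it was also 9 (against 12.8% of all) and 2, the same genes, where 402 were called (2.16%). The cause of these calls was not tested.

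When 1 array was left out, 0 to 0 probes were called and 1 to 3 had an unadjusted p under 0.05 (1.03% to 3.09%, against 4.45% to 5.37% of all tested probes). The lone array left in a group is then assumed to vary like those of the other group. The median of all 77 genes ran from -0.062 to 0.10, that of complex I from -0.043 to 0.18, of complex II from 0.028 to 0.13, of complex III from -0.069 to 0.027, of complex IV from -0.090 to 0.026 and of complex V from -0.11 to 0.045. Signs turned for SDHA (-0.16 to 0.24), ATP5G1 (-0.50 to 0.13), ATP5G2 (-0.51 to 0.11), ATP5G3 (-0.26 to 0.17), COX7A2 (-0.25 to 0.037), UQCRB (-0.061 to 0.14), UQCRC2 (-0.33 to 0.015), COX4I1 (-0.025 to 0.19) and COX6A1 (-0.41 to 0.020). NDUFS7 kept its sign at 0.38 to 0.70, ATP5SL at -0.69 to -0.54, NDUFA6 at 0.34 to 0.81, SDHD at 0.14 to 0.53, NDUFA4 at 0.095 to 0.40, COX6B1 at -0.39 to -0.065 and NDUFB5 at -0.44 to -0.087. The dim probe of NDUFB1 differed by 0.22 without background correction, and precision is limited by 2 arrays a group.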
